A study of Mus musculus with 5 samples.

Results

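Potassium channel genes were examined in olfactory sensory neurons (OSNs) that transcribe the odorant receptor gene *Olfr151*. Members were all gene rows whose symbol starts with Kcn followed by a letter, without pseudogene, antisense and opposite-strand names. This gave 95 of the 55411 gene rows, of which 55144 could be named. Of the 95, 94 code for proteins and 1, *Kcnq1ot1*, is a noncoding antisense RNA of the *Kcnq1* locus. By role, 67 genes code for pore subunits, 10 for silent voltage-gated subunits and 17 for auxiliary proteins. The last are subunits except for *Kcnrg*, a regulator of channel assembly.

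The OSNs were sorted as live GFP-positive cells from the main olfactory epithelium of 7-week-old male Olfr151(tm26Mom/tm26Mom) mice. In these mice both alleles of *Olfr151* carry an IRES-tau-GFP reporter, in controls and exposed animals alike, and both groups received the solvent DMSO. Exposed mice were kept for 5 h with 5% acetophenone, a ligand of this receptor, in DMSO, and control mice for the same time with DMSO alone. Control pools 1, 2 and 3 and exposed pools 1 and 3 were analysed, each made from 4 mice, and exposed pool 2 was not analysed here. One label field and the study's methods give 200 cells per pool, whereas the protocol text of the labels gives 100 cells per mouse and 400 per pool. The libraries held 43534590, 49527380 and 45139127 counts in the control pools and 43683076 and 42780403 in the exposed pools. At these depths 3 counts, the floor used here for a gene that is not detected, correspond to 0.0607 to 0.0703 CPM (counts scaled to a common library size). Reads were amplified by PCR and carry no molecular identifiers, so such floors cover counting error only.

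Potassium channels let potassium leave the cell and thereby set the resting potential, end action potentials and shape firing. Pore subunits open with voltage, calcium or other signals, silent subunits form channels only together with the voltage-gated Kv2 pore subunits, and auxiliary subunits change the gating or the transport of pore subunits. In an OSN, odorant binding opens the cyclic nucleotide-gated channel, and the depolarization that follows is turned into action potentials whose number and duration depend on potassium currents.

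The sort was checked with marker genes. The 12 markers of mature OSNs summed to 88472, 98969 and 97672 TPM (counts per exon length, scaled to a common sum) in control pools 1, 2 and 3 and to 78362 and 79755 in exposed pools 1 and 3, *Stoml3* being the most abundant. *Olfr151* itself stood at 3212, 3041 and 3596 CPM in control pools and 2422 and 2327 CPM in exposed pools (log2 fold change -0.47 ± 0.12 SE, adjusted p = 0.10 in the quasi-likelihood test of edgeR, Benjamini-Hochberg adjusted, not called). The reporter had a log2 fold change of -0.23 ± 0.18 (SE) and an adjusted p of 0.54 in the same edgeR test. CPM values of single genes are scaled throughout by edgeR's TMM factors and serve to compare a gene between pools, while TPM values are per exon length and serve to compare genes. Of 9 genes known to be induced by neuronal activity 7 were tested, of which Egr4 reached the count limit (141 counts in each library of either condition) only through the exposed pools. Each of the other 6 had both exposed pools above every control pool, against 20.3% of all genes tested, and 4 were called higher, against 3.42%: *Nr4a1* (log2 fold change 4.37), *S100a5* (2.17), *Junb* (1.65) and *Egr1* (1.49). The other pair was too low to test, *Arc* with 7.06, 1.48 and 28.5 CPM in control pools and 10.8 and 1.72 CPM in exposed pools, and *Npas4* below 2 CPM in every pool.

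Markers of other cells were also found. Sustentacular markers (7 genes, *Cbr2* the most abundant) summed to 629, 504 and 172 TPM in control pools and 519 and 258 TPM in exposed pools. The 12 myeloid markers, led by *Lyz2*, summed to 372, 67.9 and 48.2 TPM in control pools and 355 and 200 TPM in exposed pools. Of the 4 that were tested, 3 reached the count limit through the exposed pools alone (Ptprc, Tyrobp and *Fcer1g*), so their number and direction are not read as a result. Among them *Fcer1g* was called higher, with 241, 107 and 74 counts in controls and 776 and 851 after exposure. Others were highest in control pool 1, such as C1qb with 602, 76 and 0 counts in controls and 71 and 19 after exposure. Hemoglobin genes (4 genes, led by *Hbb-bs*) summed to 1448, 506 and 56.5 TPM in control pools and 60.6 and 26.5 TPM in exposed pools. Neutrophil markers (5 genes, *Retnlg* the highest, *Mpo* at 0) summed to 19.2, 16.1 and 108 TPM in control pools and 132 and 84.9 TPM in exposed pools. The part of these cells in the potassium channel values was not tested. The vomeronasal markers *Vmn1r51*, *Vmn2r1* and *Trpc2* were at 0 in all 5 libraries, and the summed markers of basal cells, ensheathing glia and lymphocytes stayed below 6 TPM in every pool, while those of OSN progenitors reached at most 8.66 TPM and those of endothelial and mural cells 21.6 TPM. Immature OSN markers (6 genes, led by *Stmn4*) summed to 915, 950 and 848 TPM in control pools and 753 and 664 TPM in exposed pools. All 6 were tested, and *Gap43* was called higher (log2 fold change 0.94) and *Stmn4* lower (-1.01), against 3.42% and 1.85% of all genes. The list did not move one way. Both exposed pools lay above every control pool for 3 of the 6, against 20.3% of all genes tested, and below for 2, against 19.6%.

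How much of the transcriptome do these genes take up, and which of them are used? Together the 95 genes summed to 3005, 4015 and 3435 TPM in control pools and 3430 and 3891 TPM in exposed pools. The ranges overlap. As a share of all TPM this was 0.349% ± 0.0507 for controls (SD, n = 3), and the exposed pools had 0.366% ± 0.0326 (SD, n = 2). Few genes carried this sum: the 12 most abundant in a pool took 88.6% to 92.7% of it in the 5 pools. At the other end, 26 genes had no count in any library and 35 had at most 3 counts in every library, whereas 30 had more than 3 counts in all 5.

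In control pools the sum was led by an auxiliary subunit and a pair of voltage-gated pore subunits. *Kcnmb3*, a beta subunit of the BK channel that opens with calcium and voltage, stood at 626 ± 43.1 TPM (SD, n = 3). *Kcnc4*, a fast-inactivating Kv3 pore subunit, stood at 554 ± 100.2 TPM and *Kcnh4*, an Elk-type pore subunit of the ether-a-go-go family, at 523 ± 72.5 TPM. The control values of *Kcnmb3* and *Kcnc4* overlapped, as did those of *Kcnc4* and *Kcnh4*, so the order of these genes is not fixed by the data. A gap to the next gene was clear, since the lowest *Kcnh4* value, 454 TPM, lay above the highest value of *Kcna5*, 258 TPM.

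**Figure D1:**
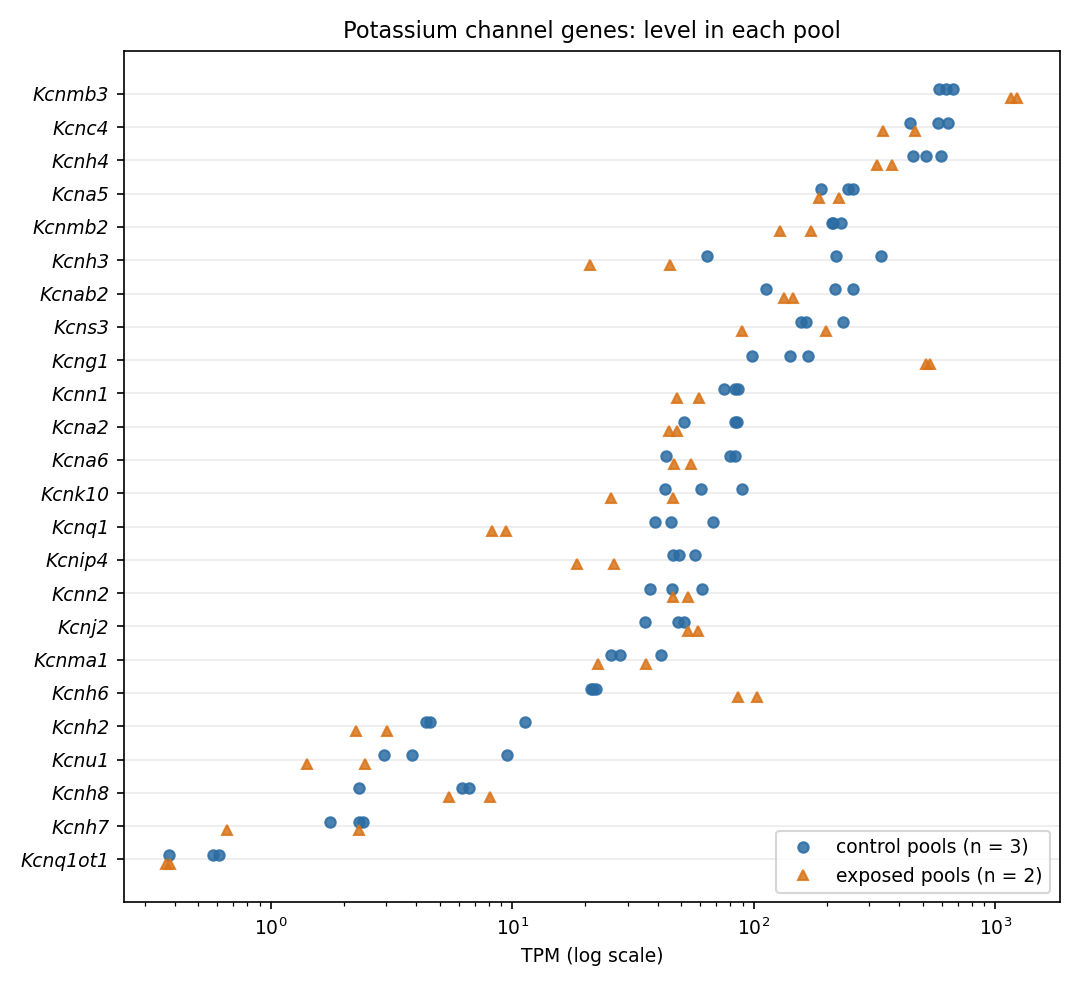
Level of 24 of the 26 potassium channel genes tested, in TPM on a logarithmic axis, with one point per control pool (circles) and per exposed pool (triangles), ordered by control mean. *Kcnmb3* has the highest control mean, with 583 to 669 TPM in control pools. The exposed points of *Kcnmb3*, *Kcng1* and *Kcnh6* stand to the right and those of *Kcnq1* to the left of the control points.

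A second tier held 6 genes between 136 and 231 TPM. They were *Kcna5* (231 ± 36.6 TPM), a Kv1 pore subunit, *Kcnmb2* (218 ± 10.4), another BK beta subunit, *Kcnh3* (207 ± 137), an Elk-type pore subunit, *Kcnab2* (195 ± 74.3), the beta subunit of Kv1 channels, and the silent subunits *Kcns3* (185 ± 42.2) and *Kcng1* (136 ± 35.0; all SD, n = 3). Neighbours in this tier overlapped in their control pools. Below it came *Kcnn1* (81.5 ± 5.60 TPM), a small-conductance calcium-activated pore subunit, and the Kv1 pore subunits *Kcna2* (73.4 ± 19.1) and *Kcna6* (69.0 ± 22.3). Of *Kcna6*'s exon bases 39.6% are also exons of another gene, so its level is uncertain. Of the 11 neighbouring pairs among these 12 genes, 9 overlapped, and 11 of the 12 were also among the 12 highest in each control pool taken alone.

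The families differed widely in how many of their genes were used. All 3 Kv4 pore genes, *Kcnd1*, *Kcnd2* and *Kcnd3*, had at most 3 counts in every library, although *Kcnip4*, a calcium-binding auxiliary subunit known from Kv4 channels, was present at 50.7 ± 5.81 TPM (SD, n = 3). Among 15 inward rectifiers, pore subunits that pass current more easily inward, *Kcnj2* held 93.4% of the control sum and 7 genes had at most 3 counts in every library. Among 14 tandem-pore background channels (*Kcnk* genes), *Kcnk10* held 93.0% of the control sum, at 64.3 ± 23.5 TPM. The 5 KCNE beta subunits were at 0 TPM in all control pools and in exposed pool 1, and summed to 1.67 TPM in exposed pool 3.

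The subunits of one channel were not present in equal amounts. *Kcnma1*, the pore subunit of the BK channel, stood at 28.0, 41.4 and 25.7 TPM in control pools, and the ratio of *Kcnmb3* to *Kcnma1* was 22.3, 16.1 and 22.7. These are ratios of transcripts per length of all annotated exons of a gene, which is 16976 bases for *Kcnma1* and 1715 for *Kcnmb3*, and an mRNA that uses fewer of those exons is underestimated by them.

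Which potassium channel genes changed with 5 h of acetophenone? In the fit over all 10048 genes with enough counts, 26 of the 95 could be tested, and 4 were called by edgeR, which required an adjusted p under 0.1 and a log2 fold change beyond 0.5 in either direction. That is 15.4% of the members tested, against 5.27% of all genes tested. The silent subunit *Kcng1*, the ether-a-go-go pore subunit *Kcnh6* and the BK beta subunit *Kcnmb3* rose (3 genes, against 3.42% of all genes called higher), and the Kv7 pore subunit *Kcnq1* fell (1 gene, against 1.85% called lower). None of these 4 was called with ERCC spike-in RNA as the scale or with a block for pool number, as detailed below. The other 22 were not called by edgeR, while DESeq2 with apeglm called 2 of them lower, *Kcnip4* and *Kcnh3*, and 13.8% of all genes. Because the material is a pool of sorted cells, fewer cells with a transcript and less of it per cell cannot be told apart.

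*Kcng1* rose more than 4-fold. This silent subunit changes the voltage range of Kv2 channels and lies on chromosome 2 (GRCm38, chr2:168260117-168281736, minus strand). It stood at 137, 208 and 183 CPM in control pools and at 816 and 736 CPM in exposed pools, so that the lower exposed pool was far above the highest control pool. The fold was 4.40 (log2 fold change 2.14 ± 0.19 SE, edgeR adjusted p = 0.00399). Among the 95 genes its rank by TPM moved from 9, 9 and 8 in control pools to 2 in both exposed pools.

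*Kcns3*, the other silent subunit tested, was not called. It overlapped between groups, with 155, 204 and 150 CPM against 94.9 and 199 CPM (log2 fold change -0.21 ± 0.32 SE, edgeR adjusted p = 0.77). The ratio of *Kcng1* to *Kcns3* in TPM was 0.624, 0.717 and 0.859 in control pools and 6.03 and 2.60 in exposed pools.

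Another silent subunit was detected in exposed pools only. No count of *Kcnf1* was found in control pools, against 179 and 112 in exposed pools 1 and 3. The gene was picked with its values in view, and how often this pattern occurs among all gene rows was not counted. A floor of 3 counts covers counting error only, so no fold is given. It lay under the limit for testing in exposed pool 3, and without any limit on low counts its adjusted p in edgeR was 0.106. Of the other 7 silent subunit genes, 6 had at most 3 counts in every library and *Kcns1* had 6 counts in exposed pool 1 alone.

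*Kcnh6* also rose more than 4-fold. It codes for a pore subunit of the Erg type within the ether-a-go-go family and lies on chromosome 11 (GRCm38, chr11:106008124-106034549, plus strand). Its values were 24.5, 20.8 and 22.0 CPM in control pools and 102 and 116 CPM in exposed pools. The control pools lay close together, and both exposed pools were over 4 times any of them. The fold was 4.88 (log2 fold change 2.29 ± 0.21 SE, edgeR adjusted p = 0.0046).

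Apart from *Kcnh6*, edgeR called no gene of the family. The Erg-type genes *Kcnh2* (log2 fold change -1.16 ± 0.58 SE) and *Kcnh7* (-0.40 ± 0.60) had negative estimates and the Elk-type gene *Kcnh8* a positive one (0.62 ± 0.55). *Kcnh4*, the most abundant of the family, stood at 558, 652 and 588 CPM in control pools and 432 and 467 CPM in exposed pools, both exposed pools being lower, with a log2 fold change of -0.41 ± 0.13 (SE) and an edgeR adjusted p of 0.17. The ratio of *Kcnh6* to *Kcnh4* in TPM was 0.0489, 0.0355 and 0.0416 in control pools and 0.264 and 0.278 in exposed pools.

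*Kcnh3* varied strongly among control pools. This Elk-type gene stood at 393, 534 and 106 CPM in control pools 1, 2 and 3 and at 40.6 and 82.1 CPM in exposed pools 1 and 3. Neither exposed pool reached the lowest control pool, but control pool 3 lay nearer to them than to the other control pools. The log2 fold change was -2.49 ± 0.72 (SE) with an edgeR adjusted p of 0.148, and DESeq2 gave -1.45 with 0.0402. With each library left out, it ranged from -2.02 to -3.08, with an adjusted p of 0.0115 without control pool 3 and of 0.261 to 0.577 in the other 4 fits.

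*Kcnmb3*, the highest of all in the control mean, rose about 2-fold. It lies on chromosome 3 (GRCm38, chr3:32471588-32492231, minus strand) and stood at 334, 316 and 288 CPM in control pools and 672 and 670 CPM in exposed pools. The exposed pools were nearly equal, and the groups did not overlap. The fold was 2.15 (log2 fold change 1.10 ± 0.13 SE, edgeR adjusted p = 0.0092). Its part of the summed TPM of all potassium channel genes was 20.8%, 16.7% and 17.0% in control pools and 33.9% and 31.7% in exposed pools.

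The other BK genes tested were not called. *Kcnmb2* stood at 207, 182 and 208 CPM in control pools and 135 and 172 CPM in exposed pools, which puts both exposed pools below the controls (log2 fold change -0.38 ± 0.17 SE, edgeR adjusted p = 0.29). The pore gene *Kcnma1* overlapped between groups, at 148, 194 and 126 CPM against 129 and 193 CPM. The ratio of *Kcnmb3* to *Kcnma1* in TPM was 51.3 and 34.3 in exposed pools, above all 3 control ratios. *Kcnmb4*, a further BK beta subunit, was too low to test, with 73 to 210 counts in control pools and 64 and 93 in exposed pools.

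*Kcnq1* was the gene that fell. It codes for a Kv7 pore subunit, best known from the slow repolarizing current of the heart, and lies on chromosome 7 (GRCm38, chr7:143106362-143427042, plus strand). It stood at 49.7, 76.2 and 53.7 CPM in control pools and at 13.0 and 10.7 CPM in exposed pools, all control pools being at least 3 times the higher exposed pool. The level was 5.06-fold lower (log2 fold change -2.34 ± 0.32 SE, edgeR adjusted p = 0.0153), but without exposed pool 1 the adjusted p was 0.128 at a log2 fold change of -2.48.

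*Kcnq1ot1*, the antisense RNA that lies within the *Kcnq1* locus on the other strand, was not called. It stood at 10.9, 14.8 and 16.4 CPM in control pools and 12.0 and 10.9 CPM in exposed pools (log2 fold change -0.30 ± 0.37 SE, edgeR adjusted p = 0.71). Counting was not by strand, so reads from the 2.96% of *Kcnq1*'s exon bases that another gene also covers cannot be assigned.

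Another Kv7 gene was detected mainly in exposed pools. *Kcnq3*, a pore subunit of the neuronal M current, was at 2 counts in control pool 3 and at 0 in the other controls. After exposure it had 149 and 71 counts. Like *Kcnf1* it was picked with its values in view, and no fold is given. It was not tested under the limit on low counts, and without that limit its edgeR adjusted p was 0.249.

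**Figure D2:**
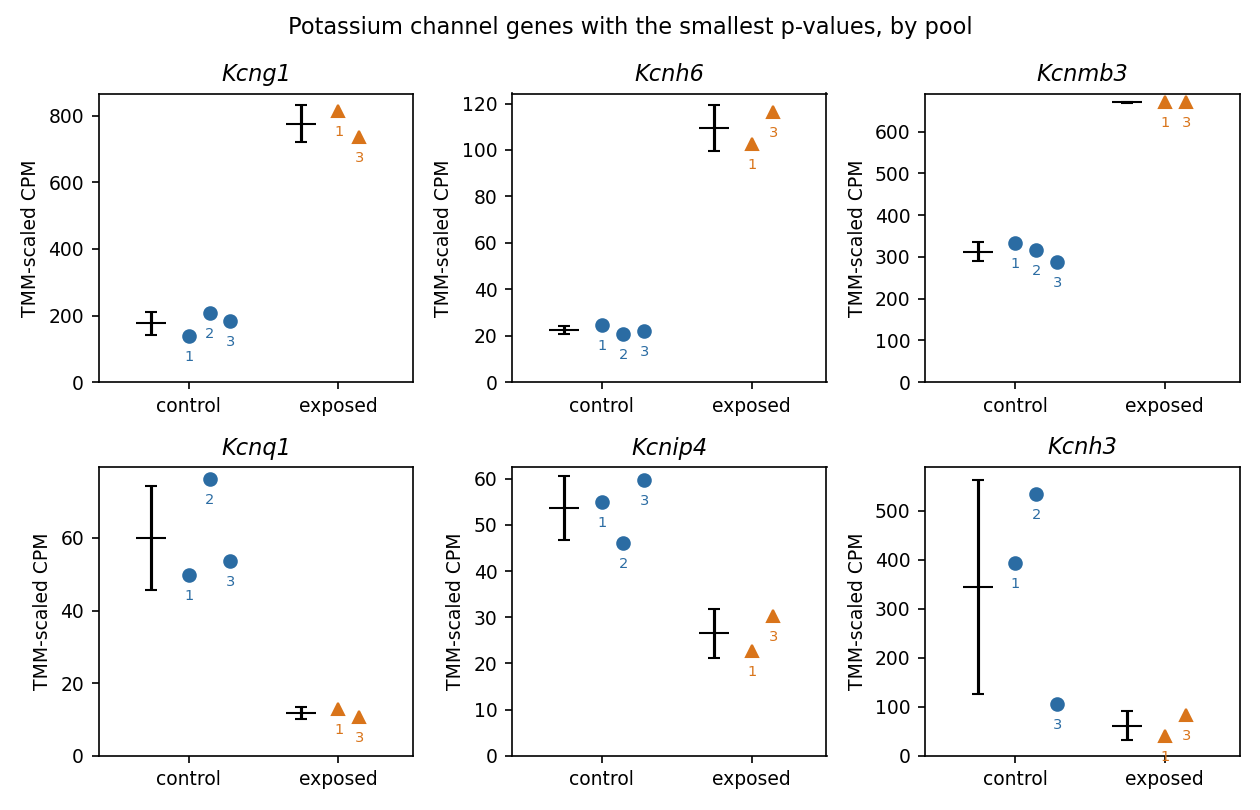
TMM-scaled CPM of the 6 potassium channel genes with the smallest p-values, one panel per gene with a linear axis from 0, one point per pool with its pool number, and mean ± SD as black bars. Exposed points lie above the control points for *Kcng1*, *Kcnh6* and *Kcnmb3* and below them for *Kcnq1*, *Kcnip4* and *Kcnh3*, where control pool 3 of *Kcnh3*, at 106 CPM, lies near the exposed pools.

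Sequence before the start of *Kcnh6* is shown because it is one of the genes that rose most and has a RefSeq window. RefSeq windows (GRCm38.p6) of 250 bases before the start were found for 70 of the 95 members, 19 of the 26 tested. A RefSeq start need not be the start of the gene row used for counting: the window of *Kcnmb3* lies wholly within its gene row and is not shown, and the last 24 bases of the *Kcnh6* window lie within that of *Kcnh6*. Capitals mark the word CCCNNGGG, the core of the site known for the EBF (Olf-1) factors of olfactory neurons. The window is chr11:106007898-106008147 on the plus strand.
Kcnh6: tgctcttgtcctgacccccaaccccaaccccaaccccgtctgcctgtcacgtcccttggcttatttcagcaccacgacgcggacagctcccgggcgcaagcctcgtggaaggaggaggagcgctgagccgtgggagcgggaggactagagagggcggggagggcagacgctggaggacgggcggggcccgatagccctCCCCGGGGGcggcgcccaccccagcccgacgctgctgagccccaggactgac
In *Kcnh6* the word occurs in 2 overlapping matches, which begin 52 and 51 bases before the start.

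Words were searched on both strands in all 32851 windows and in the 95 windows of potassium channel genes, of which several genes have more than 1. CCCNNGGG was in 11.8% of all windows and 14.7% of the channel windows. The cyclic AMP response element TGACGTCA was in 1.55% of all windows and in none of the channel windows, and its half-site TGACG, which that element contains, in 17.8% and 16.8%. The AP-1 word TGANTCA was in 6.75% and 4.21%, and the Egr word GCGNGGGCG in 4.70% and 3.16%. A match describes letters only, and these shares were not tested.

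Of the 22 tested genes that were not called, the edgeR log2 fold changes ran from -2.49 (*Kcnh3*) to 0.62 (*Kcnh8*). *Kcnip4* came closest to the threshold, with 54.9, 46.1 and 59.8 CPM in control pools and 22.7 and 30.3 CPM in exposed pools. Both exposed pools were well below the controls (log2 fold change -1.02 ± 0.27 SE, edgeR adjusted p = 0.114), and DESeq2 gave an adjusted p of 0.00765. *Kcnu1*, a pore subunit known from sperm, was near 3 CPM or below in 3 of the 5 pools and had a log2 fold change of -1.37 ± 0.74 (SE). Without control pool 1 this was -0.61, and DESeq2 with apeglm gave -0.23. The gene reached the count limit through the control pools alone, with 76 and 121 counts in exposed pools.

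Several abundant genes overlapped between groups. *Kcna5* stood at 168, 193 and 213 CPM in control pools and 217 and 170 CPM in exposed pools (log2 fold change 0.02 ± 0.18 SE). *Kcnc4* overlapped as well, with 529, 612 and 708 CPM against 443 and 564 CPM (-0.29 ± 0.18). *Kcnab2* had 243, 493 and 435 CPM against 312 and 321 CPM (-0.30 ± 0.29). These estimates do not show the absence of a change, since their standard errors of 0.18 to 0.29 on the log2 scale leave room for one.

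**Figure D3:**
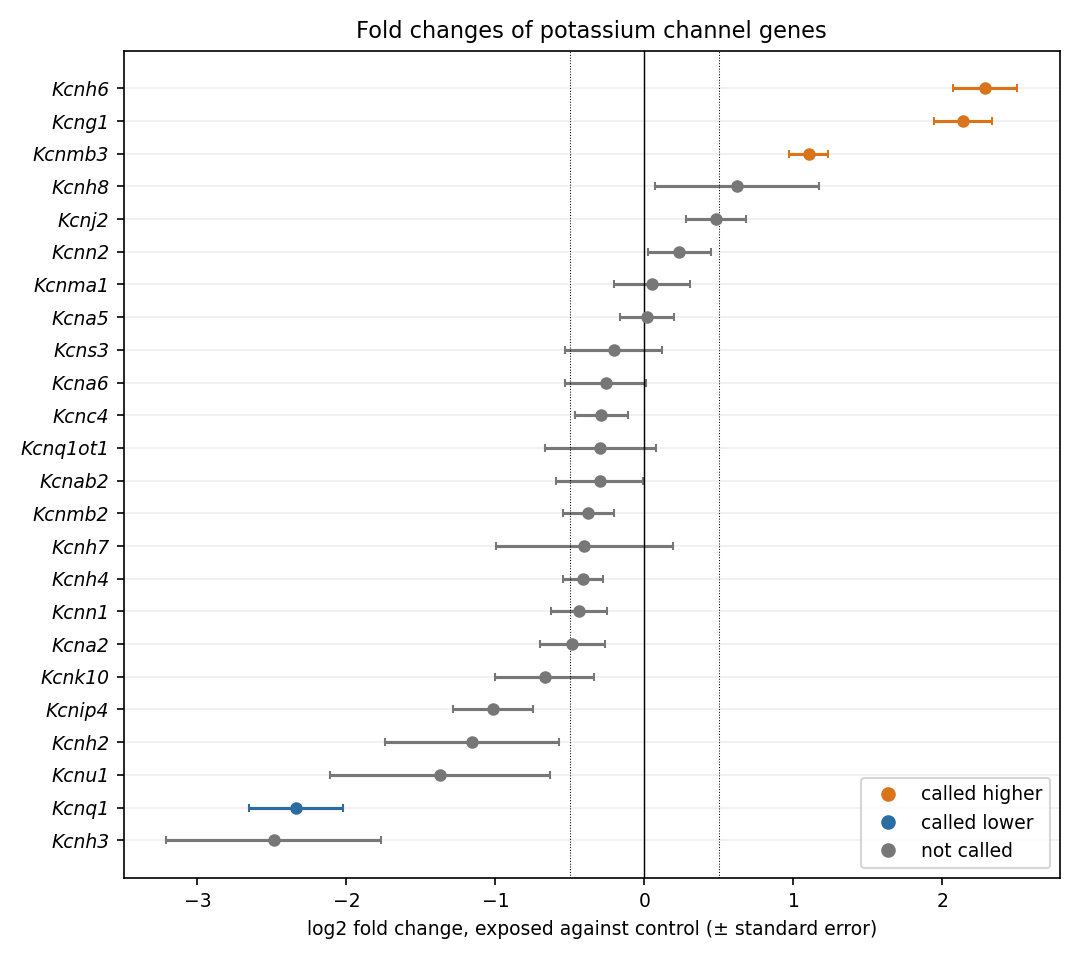
Log2 fold change of exposed against control pools for 24 of the 26 potassium channel genes tested, with standard errors as horizontal bars and dotted lines at -0.5 and 0.5. The 3 genes called higher stand at 1.10 to 2.29 and the gene called lower at -2.34, while *Kcnh3* at -2.49 has a standard error of 0.72.

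Among calcium-activated and background channels, *Kcnn1* stood at 119, 109 and 99.5 CPM in control pools and 74.4 and 86.0 CPM in exposed pools, both lower (log2 fold change -0.44 ± 0.19 SE, edgeR adjusted p = 0.26). Its relative *Kcnn2* overlapped (0.23 ± 0.21). *Kcnj2* had 60.1, 77.1 and 76.4 CPM in control pools and 97.4 and 101 CPM in exposed pools, both higher (0.48 ± 0.20, edgeR adjusted p = 0.26). *Kcnk10* overlapped, with 117, 216 and 153 CPM against 75.6 and 128 CPM (-0.67 ± 0.33).

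Counted over all 26 genes, both exposed pools lay outside the control range for 12 (4 above and 8 below), or 46.2%, against 39.9% of all genes tested (20.3% above and 19.6% below). Of the 26 log2 fold changes 9 were positive and 17 negative, with a median of -0.30 against -0.026 over all genes tested. An unadjusted p under 0.05 was reached by 8 of them, against 19.2% of all genes tested. The count limit was reached in both conditions by 24 of the 26 and in control pools alone by 2, neither of which was called. Over the 24, 4 lay above and 7 below the control range.

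The other 69 genes were below the limit for testing, set at 141 counts in all libraries of a condition. Of these, 34 had more than 3 counts in at least 1 library, and 30 of the 34 dropped to 3 counts or fewer in another. The largest count was 524 (*Kcnc1* in exposed pool 1), a Kv3 gene with 59 counts in exposed pool 3 and 53 to 355 in control pools. A pattern of at most 3 counts in every control pool and more in both exposed pools occurred for 3 genes, *Kcnf1*, *Kcnq3* and *Kcnj1*, a renal-type inward rectifier with 17 and 33 counts in exposed pools. The opposite pattern occurred for none. Further, 3 genes were at 0 in both exposed pools and had more than 3 counts in 2 control pools: *Kcnj5*, a G protein-gated inward rectifier (3, 135 and 89 counts), *Kcnt1*, a sodium-activated channel (0, 134 and 77), and *Kcnn4*, the intermediate-conductance calcium-activated channel (98, 0 and 95). How often such patterns occur among all gene rows was not counted, so these numbers are not read as a result. In the fit without a limit on counts, which called 1.57% of all genes, none of the 69 was called, and the lowest adjusted p was 0.106.

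How did the make-up of the group change? In TPM, pore subunits summed to 1743, 2421 and 2023 in control pools and 1349 and 1586 in exposed pools, 59.2% and 40.1% of the members' mean sum. Auxiliary subunits summed to 1006, 1192 and 1106 in control pools and 1452 and 1589 in exposed pools, 31.6% and 41.5%. Silent subunits summed to 256, 401 and 306 in control pools and 630 and 715 in exposed pools, 9.20% and 18.4%. Each of these sums stood apart between groups, while the total did not. By CPM, 39.9% of all single genes tested did so as well. TPM values are shares of a common sum. Of it *S100a5* alone took 34949, 23945 and 38072 in control pools and 138668 and 121796 in exposed pools. A larger share of 1 gene lowers the TPM of all others. How far the sums given here and by family below differ for that reason was not tested. The rises of the auxiliary and silent sums each rested on 1 gene. Without *Kcnmb3* the auxiliary sums were lower after exposure (380, 523 and 523 TPM in controls against 288 and 357). Without *Kcng1* the silent sums overlapped (157, 234 and 164 against 91.9 and 200.2). The pore sums overlapped without *Kcnh3* (1523, 2084 and 1959 against 1328 and 1541). Their exposed mean was still the lower one, at 1434 TPM against 1855 in controls. Over all members without the 3 genes called higher, the exposed pools lay below the controls (2259, 3157 and 2689 TPM against 1643 and 2040). These 3 were left out because they rose, while *Kcnq1* was kept. The single genes left out above were likewise picked with their changes in these data in view. None of these remainders is therefore read as a result.

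**Figure D4:**
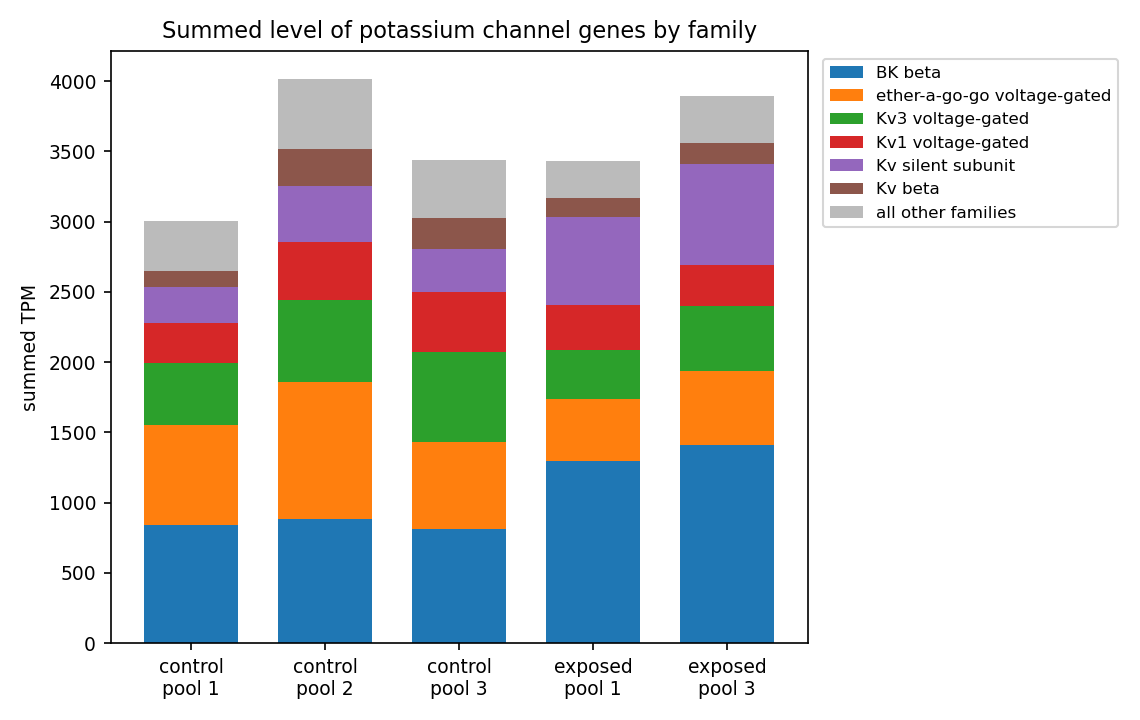
Summed TPM of all 95 potassium channel genes in each pool, stacked by family, with the 6 families of highest control mean in colour and all others in grey. The BK beta segment is 815 to 883 TPM in control pools and 1293 and 1407 in exposed pools, while the whole bar ranges from 3005 to 4015.

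By family, BK beta subunits went from 847 ± 34.1 TPM (SD, n = 3) to 1350 ± 80.4 (SD, n = 2) and Kv silent subunits from 321 ± 74.0 to 673 ± 60.6. Within the BK beta family *Kcnmb3* rose, while both exposed pools of *Kcnmb2*, not called, lay below the controls. Kv7 subunits went from 55.7 ± 17.5 to 12.2 ± 2.15 and Kv4-associated KChIP subunits from 51.1 ± 6.19 to 22.5 ± 5.57. In control pools *Kcnq1* held 91.0% of the Kv7 sum and *Kcnip4*, which edgeR did not call, 99.2% of the KChIP sum. The ether-a-go-go family (766 ± 188 and 487 ± 62.4) contains genes with estimates far apart, *Kcnh6* (2.29 ± 0.21 SE on the log2 scale) and *Kcnh3* (-2.49 ± 0.72, not called by edgeR). Without *Kcnh3*, which varied among control pools, its sums overlapped (485, 639 and 551 TPM against 422 and 486 TPM). Small-conductance and intermediate-conductance channels stood at 131 ± 14.3 and 105 ± 12.6, and Kv1 channels at 374 ± 78.3 and 305 ± 22.7.

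Genes that work with potassium channels under other names were called in neither direction. Of 11 known partners, such as the KATP subunits *Abcc8* and *Abcc9*, 1 reached the limit for testing. This was *Amigo1*, an adhesion protein that associates with voltage-gated channels, with 78.6, 124 and 56.7 CPM in control pools and 32.5 and 68.9 CPM in exposed pools (log2 fold change -0.77 ± 0.44 SE, edgeR adjusted p = 0.40). Of 21 genes of the sodium-potassium pump and of potassium-chloride cotransport, 9 were tested, 2 of them through the exposed pools alone. By edgeR 0 were called, against 5.27% of all genes, and 0 had an unadjusted p under 0.05, against 19.2%. Their log2 fold changes ran from -1.51 ± 0.65 (SE, *Slc12a2*) to 1.91 ± 0.93 (*Fxyd5*, which reached the count limit through the exposed pools alone). The pump subunit *Atp1b1* (0.20 ± 0.10) was among them. Of the 12 mature OSN markers, 4 were called lower, against 1.85% of all genes tested. These were the cyclic nucleotide-gated channel subunits *Cnga2* (-0.83), *Cngb1* (-0.91) and *Cnga4* (-0.53) and the receptor transporter *Rtp1* (-1.07).

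The calls were kept with DESeq2's size factors but not with spike-ins. With ERCC spike-in RNA as the scale, the median over all genes shifted from -0.026 to -0.23 on the log2 scale, 1.41% of all genes were called, and none of the 4 genes was among them (*Kcng1* 1.83 with adjusted p = 0.336, *Kcnh6* 2.14 with 0.216, *Kcnmb3* 0.90 with 1.00 and *Kcnq1* -2.67 with 0.115 in edgeR). Spike-ins took 0.631%, 0.249% and 0.332% of the counts in control pools and 0.542% and 0.306% in exposed pools.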

How the data were processed

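RNA of sorted OSNs was amplified with SMARTer chemistry in 12 PCR cycles, and Nextera XT libraries were sequenced as 50-base single reads. Mapping was done by the authors with STAR (2.7.0a) on GRCm38 plus the reporter, and they deposited raw counts per gene, summed over exons with featureCounts (1.6.3), without strand, together with exon lengths. Symbols came from GENCODE M21. Pools hold different mice, and p-values measure the spread between these pools. Per the labels, each of 3 consecutive days included exposed and control mice. Pools cannot be assigned to days, so day is not in the fit.

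Counts were fitted in R 4.3.3 with edgeR 4.0.16 (TMM, robust glmQLFit, glmQLFTest), condition being the only factor in all 5 libraries (3 residual degrees of freedom). A gene was tested when all libraries of one condition reached 141 counts, where the density of log2 counts has a local minimum. Calls required a Benjamini-Hochberg adjusted p under 0.1 together with a log2 fold change beyond 0.5 in either direction. SE is the log2 fold change over the square root of F. TPM used the deposited exon lengths without ERCC rows. The procedure was tested on simulated data. Python 3.11.15 was used for TPM and sequences.

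Named genes were those called, the 12 most abundant, the 5 largest fold changes in each direction among those not called, the most abundant of each family and the called genes of the other lists. Some genes that this rule selects are not reported here. Others named for low counts were picked with their values in view. The members and lists were chosen with earlier results of these data known. Alternatives were DESeq2 1.42.0 with apeglm 1.24.0, other scalings, filters and thresholds, a block for pool number and each library left out. Single-cell data and the libraries of *Olfr16* neurons were not analysed here.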

Additional observations from a re-analysis of the deposited data

How the results depend on the processing

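The 4 genes called kept their direction under every alternative run. DESeq2 with apeglm called 6, with 3 lower in place of 1 (*Kcnip4* and *Kcnh3*, log2 fold change -1.45, added). With ERCC scaling 1 gene was called (*Kcnh3*, -2.62, adjusted p = 0.0889) and 0 were called higher. With a block for pool number 0 were called in all, 0 higher and 0 lower, when 0.119% of all genes were called. The log2 fold changes under this block were 2.29 (*Kcng1*, adjusted p = 0.127), 2.23 (*Kcnh6*, 0.147), 1.11 (*Kcnmb3*, 0.147) and -2.13 (*Kcnq1*, 0.165). Only pool numbers 1 and 3 are shared, and no label says what a number marks, so the numbers were not taken as pairs. Correlations of deviations (0.0551 and -0.0822 within these numbers) cannot settle this, since those of 2 exposed pools mirror each other.

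With each library left out in turn, the genes called ranged from 3 to 5 in all, 3 to 3 higher and 0 to 2 lower. *Kcnq1* was not called without exposed pool 1. Called in addition were *Kcna2* without control pool 1 (-0.65, adjusted p = 0.092) and *Kcnh3* without control pool 3, and 2 genes were called lower without exposed pool 3.

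Among the potassium channel genes reported, signs turned in 5, none of them called there. Under ERCC scaling *Kcna5* was at -0.28, *Kcnn2* at -0.034 and *Kcnma1* at -0.13. With each library left out, *Kcna5* ranged from -0.17 to 0.18 (-0.069 without control pool 1), *Kcns3* from -0.84 to 0.23, *Kcnh7* from -1.51 to 0.22 and *Kcnma1* from -0.27 to 0.31 (-0.072 without control pool 3). As a share of counts in place of TPM, the summed level in control pools was 0.433%. The causes were not tested. With 2 exposed pools, the spread within that group rests on 1 difference per gene.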

Other observations

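In 2 genes besides *Kcnh3*, chosen here after their values were seen, control pool 3 stood apart from the other control pools. How many of all genes tested do so was not counted. In *Kcng1*, *Kcnh6*, *Kcnmb3* and *Kcnq1* control pool 3 lay near the other control pools. *Lhx2*, a homeodomain transcription factor of OSNs, stood at 376, 437 and 116 CPM in control pools 1, 2 and 3 and at 46.7 and 86.2 CPM in exposed pools 1 and 3 (log2 fold change -2.22 ± 0.61 SE, edgeR adjusted p = 0.13). *Slc12a2*, a cotransporter that brings chloride into OSNs, stood at 806, 500 and 147 CPM in control pools and 162 and 177 CPM in exposed pools (log2 fold change -1.51 ± 0.65 SE, edgeR adjusted p = 0.28). In these 2 genes, as in *Kcnh3*, control pool 3 lay nearer to the exposed pools than to the other control pools.

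The opposite-strand RNA *Kcnmb4os2*, left out by its name, was counted 366, 70 and 248 times in control pools, against 55 and 72 after exposure. *Kcnmb4*, which shares 31.5% of its exon bases with opposite-strand RNAs, had 210, 92 and 73 counts among controls, against 64 and 93 after exposure.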
